A study of Mus musculus with 4 samples.

Results

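Glucocorticoid and fasting responsive genes were followed in the left ventricular free wall of mice carrying a cardiac voltage indicator. The 10 genes, chosen by symbol from the raw count table, were Fkbp5, Tsc22d3, Zbtb16, Klf9, Sgk1, Mt1, Mt2, Pdk4, Txnip and Cdkn1a, out of 38355 genes counted. All 10 had a row in the table and passed the filter on low counts. Per the labels, 2 mice carried VSFP2.3 (TG), a fluorescent protein that reports membrane voltage and that the series title describes as targeted to cardiomyocytes, and 2 were wild type (WT). TG 1 and WT 1 were 35-week males, TG 2 and WT 2 were 19-week females, all 4 had the same parents and none was treated. Each mouse gave 1 total RNA library, so TG 1 with WT 1 and TG 2 with WT 2 form sex- and age-matched pairs. The series was designed to look for toxicity of the transgene. The promoter that drives it, the strain, feeding state and time of day at collection are, for these mice, not given in the sources used here.

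Without hormone, the glucocorticoid receptor is held by heat shock proteins and, once an adrenal glucocorticoid binds it, acts on DNA at palindromic response elements. In heart and other tissues it raises a recognisable set of genes within hours, and many of the same genes also answer to fasting through the FOXO factors and the fatty acid sensing PPAR receptors. The 10 genes cover feedback and anti-inflammatory targets (Fkbp5, Tsc22d3), transcription factors (Zbtb16, Klf9), a kinase (Sgk1), metal-binding proteins (Mt1, Mt2), fuel selection and glucose uptake (Pdk4, Txnip) and a cell cycle brake (Cdkn1a).

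The libraries held 14860759 and 14158440 counts in TG 1 and TG 2 and 15498935 and 16762713 in WT 1 and WT 2. All 12 of 12 cardiomyocyte markers were detected, with a summed level of 222021 and 147221 CPM (counts scaled to the effective library size by trimmed means, TMM) in TG against 142311 and 188291 in WT. The largest part of each sum was Ttn, at 118161 and 63260 CPM in TG against 61652 and 96929 CPM in WT. Over the 12 markers the median log2 TG over WT ratio was 0.10 in the male and -0.05 in the female pair. Sex-linked genes fitted the labelled sex in each of the 4 libraries. WT 2 stood apart in having 89.9% of its counts in protein-coding genes, against 96.7% to 97.4% in the other 3, and in its 137304 counts of Lars2, a mitochondrial tRNA synthetase gene, against 573, 314 and 780 in TG 1, TG 2 and WT 1. The 7 atrial markers were divided. WT 2 held 1111 counts of the atrial myosin light chain Myl7 against 0, 3 and 5 in TG 1, TG 2 and WT 1, and Myl4 and Sln were likewise highest there, while Nppa was lowest there. The atrial sum was 3174 and 6023 CPM in TG against 5520 and 2939 CPM in WT, and most of each value was Nppa and Pam rather than Myl7, Myl4 or Sln. These genes were named after their values were seen. Macrophage markers summed to 405 and 1310 CPM in TG 1 and TG 2 against 1648 and 416 in WT 1 and WT 2, and lymphocyte markers to 2.06 and 39.7 CPM in TG 1 and TG 2 against 39.1 and 3.13 in WT 1 and WT 2. In bulk tissue, fewer cells of a type and less RNA per cell cannot be told apart.

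The 10 genes differed widely in level once exonic length was taken into account. In CPM per kilobase, averaged over the 4 libraries, Txnip was highest at 189, followed by Mt1 at 86.6, Pdk4 at 78.9, Tsc22d3 at 25.4, Mt2 at 23.3, Zbtb16 at 21.5, Klf9 at 19.3, Sgk1 at 15.0, Cdkn1a at 5.18 and Fkbp5 at 2.31. The ranges over libraries of neighbours in this order overlapped, except that Pdk4 (39.0 to 116 CPM per kilobase) stayed above Tsc22d3 (16.1 to 31.8) and Sgk1 (13.3 to 19.3) above Cdkn1a (2.42 to 8.64). Mt2 was the most variable gene, with a 5.98-fold span between its highest and lowest library in CPM, and Klf9 the steadiest, with a 1.22-fold span.

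**Figure D1:**
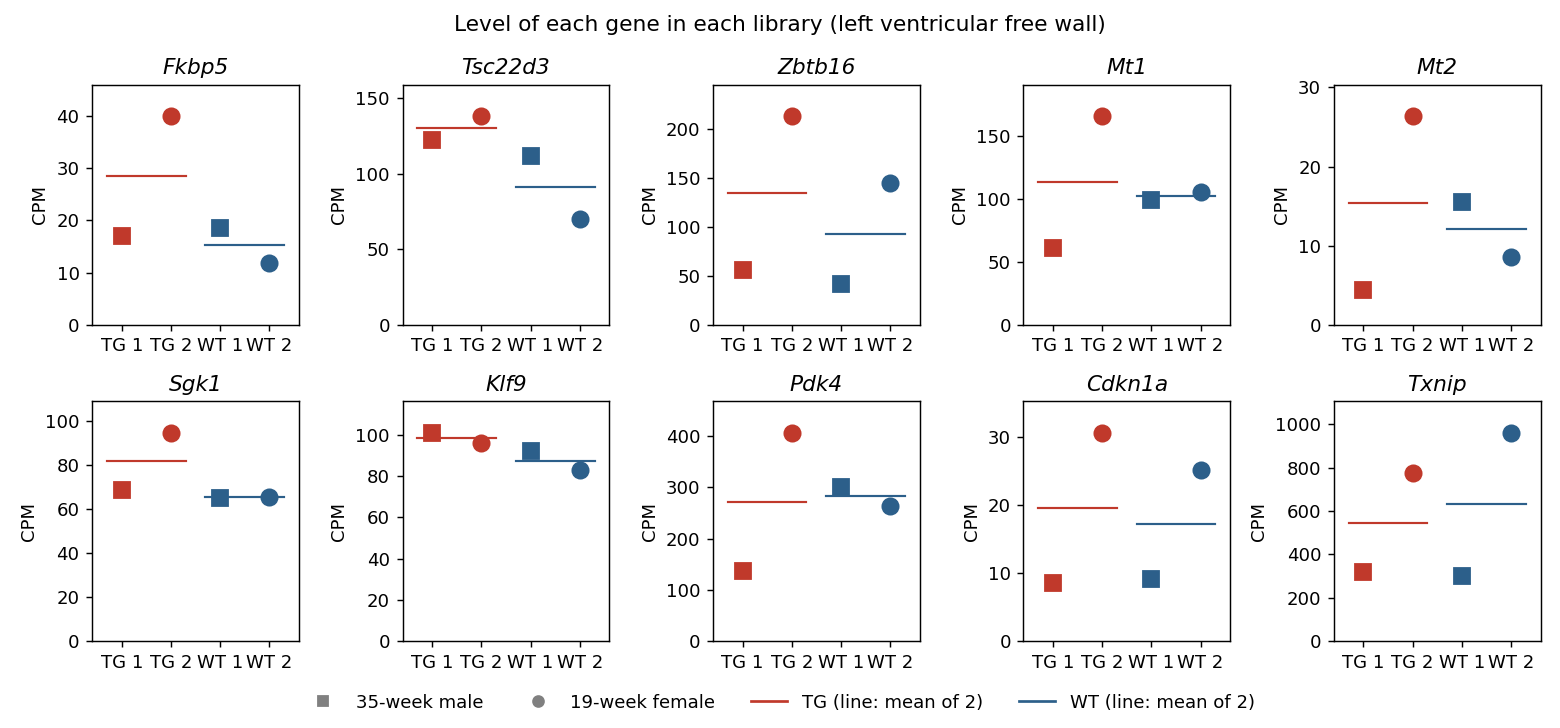
Level of each gene in CPM (y axis, from 0, own scale per panel) in the 4 libraries (x axis), with squares for 35-week males, circles for 19-week females, red for TG, blue for WT and a line at the mean of each genotype. TG 2 is the highest library for 8 of the 10 genes, and Zbtb16, Mt1, Cdkn1a and Txnip are lower in both males than in both females.

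TG and WT hearts were not separated by the test for any of the 10 genes. The quasi-likelihood test of edgeR, adjusted by the Benjamini-Hochberg method over 14189 tested genes, called 0 of the 10, beside 0% of all tested genes. At an unadjusted p under 0.05 there were 0 of the 10, beside 0.698%. DESeq2 called 0 of the 10, beside 0.0211%, and limma-voom 0. Values in TG were above both WT values in 3 genes, Tsc22d3, Sgk1 and Klf9, and below both in 0, beside 10.3% and 10.7% of all tested genes. The median log2 fold change of the 10 genes (TG over WT) was 0.26, with 8 above 0, beside a median of -0.01 and 47.5% above 0 for all tested genes. Every fold change that follows for TG over WT has an adjusted p of 1.00 by edgeR, with standard errors (SE) from the fit and n = 2 mice per genotype.

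Fkbp5 (ENSMUSG00000024222, mm10 chromosome 17, 28399094 to 28517527) encodes an HSP90 cochaperone that lowers the receptor's affinity for hormone, and is a standard readout of receptor activity. It was at 17.1 and 40.0 CPM in TG 1 and TG 2 against 18.5 and 11.8 CPM in WT 1 and WT 2. TG 2 stood alone, above the other 3 libraries, and the genotypes overlapped. The log2 fold change of 0.91 ± 0.46 was the largest of the 10, and it was 0.17 without TG 2 and 1.40 without TG 1. Fits without a library, here and below, leave sex and age unequal between TG and WT. Within pairs, the log2 TG over WT ratio was -0.12 in the 35-week males and 1.75 in the 19-week females.

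Tsc22d3 (ENSMUSG00000031431, chromosome X, 140539528 to 140600659), known as GILZ, mediates part of the anti-inflammatory action of glucocorticoids. It was at 122 and 138 CPM in TG 1 and TG 2 against 112 and 70.0 CPM in WT 1 and WT 2. The genotypes did not overlap, TG 1 and WT 1 lay close together, and WT 2 was the low library. The log2 fold change was 0.52 ± 0.26, and 0.22 without WT 2. Its pseudogene-like relative Gm8812, 89.8% identical over 420 bp, held 4 to 12 counts per library, against 1094 to 2078 for Tsc22d3.

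Klf9 (ENSMUSG00000033863, chromosome 19, 23141226 to 23168134), a zinc finger transcription factor induced by glucocorticoids, was at 101 and 96.2 CPM in TG 1 and TG 2 against 91.9 and 82.8 CPM in WT 1 and WT 2. The genotypes did not overlap, by a narrow margin, and the log2 fold change was 0.17 ± 0.14. It was above 0 in both pairs, at 0.13 in males and 0.22 in females.

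Zbtb16 (ENSMUSG00000066687, chromosome 9, 48654297 to 48836222), which encodes the repressor PLZF, was at 56.1 and 213 CPM in TG 1 and TG 2 against 41.4 and 145 CPM in WT 1 and WT 2. Both females were far above both males, and in each pair TG was above WT. The log2 TG over WT ratio was 0.44 in the male and 0.56 in the female pair. The fitted log2 fold change was 0.54 ± 0.83, at -0.73 without TG 2 and 1.71 without WT 2.

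Sgk1 (ENSMUSG00000019970, chromosome 10, 21882184 to 21999903) is the serum and glucocorticoid regulated kinase, which raises the surface level and activity of several ion channels and transporters. Its promoter is shown because it carries the receptor's element in full. The 300-base windows around annotated starts (250 bases before and 50 after, RefSeq on GRCm38.p6) were searched on both strands in 32851 windows of all genes, and 9 of the 10 genes had 1 or more windows, 17 in all. The palindrome, AGAACA and its mirror TGTTCT with 3 bases of any kind between, was found in 3 of all windows (0.00913%), and 1 of these is among the 6 windows of Sgk1. That window, chr10:21993640-21993939 on the plus strand, reads 5′ to 3′ with the palindrome in capitals at bases 62 to 76.
Sgk1: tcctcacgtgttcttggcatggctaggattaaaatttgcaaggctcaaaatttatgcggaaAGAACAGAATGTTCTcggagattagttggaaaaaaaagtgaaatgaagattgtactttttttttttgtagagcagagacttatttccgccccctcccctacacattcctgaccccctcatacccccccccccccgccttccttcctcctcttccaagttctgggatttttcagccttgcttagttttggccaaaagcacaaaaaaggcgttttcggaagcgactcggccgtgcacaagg
The shorter core ACANNNTGT, which lies inside the palindrome, was found in 6.85% of all windows and in windows of 3 of the 10 genes, Sgk1, Mt1 and Txnip. A match describes these letters, not binding.

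Sgk1 itself was at 68.7 and 94.7 CPM in TG 1 and TG 2 against 65.2 and 65.6 CPM in WT 1 and WT 2. The genotypes did not overlap, but 3 of the 4 libraries lay within a narrow band and TG 2 alone stood above it. The log2 fold change was 0.32 ± 0.20 with all libraries and 0.07 without TG 2. Its relative Gm11025, 87.0% identical over 462 bp, held 6 to 15 counts per library.

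The metallothioneins Mt1 (ENSMUSG00000031765, chromosome 8, 94179082 to 94180327) and Mt2 (ENSMUSG00000031762, chromosome 8, 94172664 to 94173568) are neighbouring genes for small cysteine-rich proteins that bind zinc and copper. Metals induce them through the factor MTF1 and glucocorticoids through the receptor. Their promoters are shown because both carry several copies of the core that MTF1 recognises, here searched as TGCACNC and TGCGCNC on both strands (12.6% and 15.4% of all windows hold them). Mt1 had 3 such cores and Mt2 had 4, in capitals below, in the windows chr8:94178839-94179138 and chr8:94172368-94172667 on the plus strand.
Mt1: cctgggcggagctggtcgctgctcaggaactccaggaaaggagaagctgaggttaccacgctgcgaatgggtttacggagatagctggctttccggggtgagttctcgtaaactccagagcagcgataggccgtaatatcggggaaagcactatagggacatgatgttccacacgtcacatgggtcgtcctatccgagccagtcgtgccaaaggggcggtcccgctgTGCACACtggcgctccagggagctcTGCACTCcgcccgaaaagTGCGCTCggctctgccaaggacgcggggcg
Mt2: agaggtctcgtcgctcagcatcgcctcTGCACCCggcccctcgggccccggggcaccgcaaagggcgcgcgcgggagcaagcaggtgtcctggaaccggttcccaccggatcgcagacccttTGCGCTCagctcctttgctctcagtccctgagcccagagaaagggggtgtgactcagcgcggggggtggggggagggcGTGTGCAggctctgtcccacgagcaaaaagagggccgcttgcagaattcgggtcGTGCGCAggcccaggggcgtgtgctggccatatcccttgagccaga

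Mt1 was at 60.8 and 166 CPM in TG 1 and TG 2 against 99.4 and 106 CPM in WT 1 and WT 2. Mt2 was at 4.41 and 26.4 CPM in TG 1 and TG 2 against 15.6 and 8.57 CPM in WT 1 and WT 2. For both genes TG 2 was the highest and TG 1 the lowest library, with both WT mice between them, so the TG mice differed more from each other than from WT. Within pairs the ratio turned round. The log2 TG over WT ratio of Mt2 was -1.79 in the 35-week males and 1.61 in the 19-week females, and that of Mt1 was -0.71 in the males and 0.65 in the females. The fitted log2 fold changes were 0.14 ± 0.47 for Mt1 and 0.35 ± 0.83 for Mt2, and both changed sign when TG 2 was left out (-0.75 and -1.45).

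The 2 metallothioneins did not move in fixed proportion. Counts of Mt1 were 13.8 and 6.28 times those of Mt2 in TG 1 and TG 2, against 6.39 and 12.3 times in WT 1 and WT 2. Within pairs, macrophage markers went the same way as Mt1 and Mt2. Of 14 such markers, 13 were higher in TG 2 than in WT 2, and 0 higher in TG 1 than in WT 1. Their sum, though, was highest in WT 1, unlike Mt1 and Mt2. The part of macrophages in the metallothionein values was not tested. The antisense gene Gm45774 covers 73.5% of the exonic length of Mt2 and has no count used here. Since the strand setting of the counting is among the details not given in the sources used here, reads from Mt2 and its antisense gene cannot be told apart.

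Pdk4 (ENSMUSG00000019577, chromosome 6, 5483351 to 5496309) encodes the kinase that shuts down pyruvate dehydrogenase in fasting, which turns the heart from glucose to fatty acids. It was at 137 and 406 CPM in TG 1 and TG 2 against 300.3 and 264 CPM in WT 1 and WT 2. As with the metallothioneins, the TG mice lay at both ends and the WT mice between them. The log2 fold change was -0.05 ± 0.51, at -1.04 without TG 2 and 0.53 without TG 1, and the log2 ratio was -1.13 within the male and 0.62 within the female pair. Angptl4 and Ucp3, a pair of PPAR targets named after their values were seen, had TG 1 lowest and TG 2 highest too. Angptl4, an inhibitor of lipoprotein lipase, was at 0.854 and 13.5 CPM in TG against 4.13 and 8.25 CPM in WT, and the mitochondrial carrier Ucp3 at 4.84 and 27.6 CPM in TG against 10.6 and 16.2 CPM in WT.

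Txnip (ENSMUSG00000038393, chromosome 3, 96557957 to 96561883) encodes a thioredoxin-binding arrestin that restrains glucose uptake and is induced by glucose through MondoA and ChREBP. It was at 319.9 and 774 CPM in TG 1 and TG 2 against 301 and 961 CPM in WT 1 and WT 2. The genotypes overlapped, and the females stood well above the males. Txnip was the 1 gene of the 10 lower in TG than in WT in the female pair (log2 ratio -0.31), and it was at 0.09 in the male pair. The fitted log2 fold change was -0.21 ± 0.67, and 0.86 without WT 2.

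The Txnip window chr3:96557707-96558006 on the plus strand is shown because it holds both a receptor core, ACANNNTGT at bases 81 to 89, and the FOXO letters GTAAACA at bases 130 to 136, in capitals. GTAAACA was found in 3.65% of all windows and, among the 10 genes, in those of Txnip and Klf9.
Txnip: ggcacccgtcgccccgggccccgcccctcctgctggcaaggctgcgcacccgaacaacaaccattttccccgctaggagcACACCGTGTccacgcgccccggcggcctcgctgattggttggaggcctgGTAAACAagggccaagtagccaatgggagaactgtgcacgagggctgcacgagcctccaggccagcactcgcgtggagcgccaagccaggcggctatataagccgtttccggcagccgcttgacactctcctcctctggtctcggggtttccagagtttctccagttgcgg
The antisense gene Gm15441 overlaps 19.4% of the exonic length of Txnip and held 5 and 7 counts in TG against 7 and 10 counts in WT, while Txnip held 4498 to 15024.

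Cdkn1a (ENSMUSG00000023067, chromosome 17, 29090976 to 29100727) encodes p21, an inhibitor of cyclin-dependent kinases induced by p53, FOXO factors and glucocorticoids. It was at 8.61 and 30.7 CPM in TG 1 and TG 2 against 9.12 and 25.3 CPM in WT 1 and WT 2. Both females were above both males and the genotypes overlapped. The log2 fold change was 0.19 ± 0.74, and -0.995 without TG 2.

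**Figure D2:**
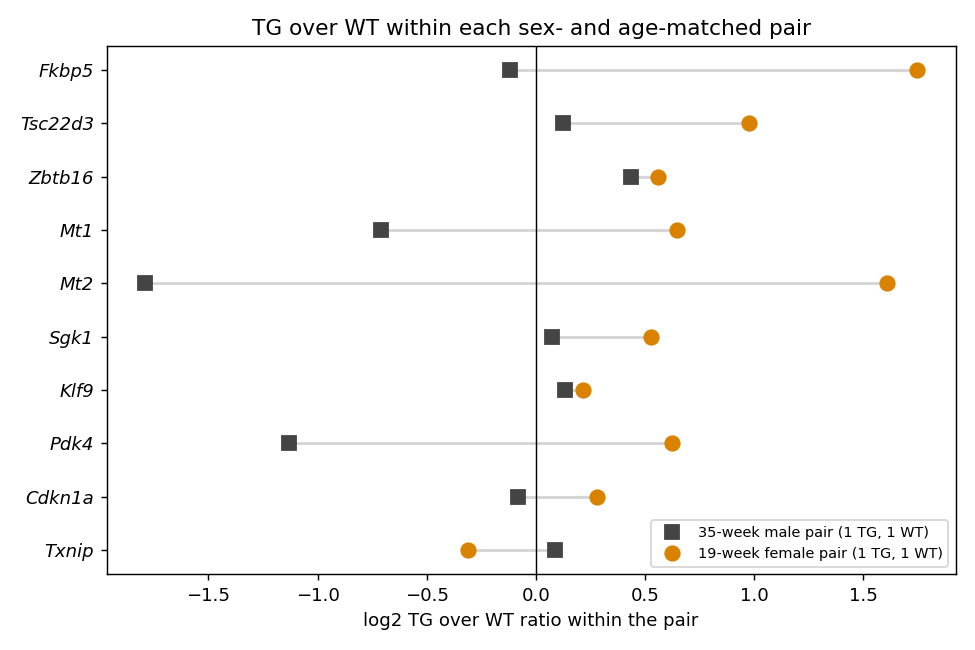
Log2 TG over WT ratio of each gene (rows) within the 35-week male pair (squares) and the 19-week female pair (circles), each from 1 TG and 1 WT library with a prior count of 2. Of the 10 genes 9 lie above 0 in the female pair and 5 in the male pair, with Fkbp5, Tsc22d3, Mt1, Mt2 and Pdk4 furthest apart.

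In the female pair, 9 of the 10 genes were higher in TG 2 than in WT 2, with a median log2 ratio of 0.59, and in the male pair 5 of the 10 were higher in TG 1 than in WT 1, with a median of -0.00, beside medians of -0.01 and -0.00 for all tested genes in the female and the male pair. Zbtb16, Tsc22d3, Sgk1 and Klf9 were higher in TG in both pairs, 4 of 10, beside 16.7% of all tested genes. The other 6 had opposite directions in the pairs, beside 64.7% of all tested genes. With 1 library per genotype in a pair, the difference between pairs was not tested. Of the lymphocyte markers, 11 of 12 were higher in TG 2 than in WT 2 and 0 of 12 higher in TG 1 than in WT 1, with Cd8a at 0 in TG 1, beside the macrophage split given above. The WT mouse of the female pair is also the library with the high Lars2 and Myl7 counts. The part of these in the pair ratios was not tested. With WT 2 left out, a setting added after seeing the data, the fitted TG over WT median of the 10 genes was 0.27, with 8 above 0, beside 0.01 and 50.9% above 0 for all tested genes. In that fit WT 1, a 35-week male, is the only WT mouse, so sex and age differ between TG and WT. That fit therefore cannot show whether the TG over WT values hold without WT 2. TG 2 was the highest of the 4 libraries for 8 of the 10 genes, beside 18% of all tested genes, and the lowest for 0, beside 19.8%. TG 1 was the lowest for 4, beside 27.1%.

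The 35-week males differed from the 19-week females most in Cdkn1a, Zbtb16 and Txnip. The fitted levels were 3.67-fold lower in males for Zbtb16, 3.15-fold lower for Cdkn1a and 2.79-fold lower for Txnip. Sex and age go together in these mice and cannot be told apart. By edgeR 0 of the 10 genes were called after adjustment, beside 0.0282% of all tested genes, which were 4 genes higher in males. At an unadjusted p under 0.05 there were 3, all lower in males, beside 3.62% of all tested genes in either direction and 1.77% lower in males. Limma-voom called 0. DESeq2 called these 3, beside 0.265% of the genes it gave an adjusted p in either direction and 0.109% lower in males. The median log2 fold change (males over females) of the 10 genes was -0.69, with 8 below 0, beside a median of 0.01 and 48.1% below 0 for all tested genes. Without WT 2 the median was -1.11, with 9 below 0, beside 0.00 and 49.2% below 0. The only female in that fit is TG 2, the highest library for 8 of the 10 genes.

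Values per mouse show the 3 genes in separate bands. Zbtb16 was at 56.1 and 41.4 CPM in the males TG 1 and WT 1 against 213 and 145 CPM in the females TG 2 and WT 2, a log2 fold change (males over females) of -1.88 ± 0.27. Its adjusted p was 0.977 by edgeR and 2.16e-08 by DESeq2. Cdkn1a was at 8.61 and 9.12 CPM in males against 30.7 and 25.3 CPM in females, a log2 fold change of -1.66 ± 0.16 (adjusted p = 0.340 by edgeR and 1.82e-06 by DESeq2). Txnip was at 319.9 and 301 CPM in males against 774 and 961 CPM in females, a log2 fold change of -1.48 ± 0.16 (adjusted p = 0.435 by edgeR and 1.07e-12 by DESeq2). By edgeR's unadjusted p they ranked 17, 9 and 11 of 14189 genes. Since both males lay below both females for all 3, leaving out 1 library could not turn the sign and is no check of it. The log2 fold changes in these fits were -2.13 to -1.57 for Zbtb16, -1.79 to -1.51 for Cdkn1a and -1.63 to -1.32 for Txnip.

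Mt1 was also lower in both males (60.8 and 99.4 CPM) than in both females (166 and 106 CPM), with a log2 fold change of -0.76 ± 0.33 and an adjusted p of 0.999 by edgeR. Without overlap, 4 of the 10 genes were lower in males and 0 higher, beside 15.9% and 15.5% of all tested genes. Pdk4 (-0.62 ± 0.43), Mt2 (-0.80 ± 0.78), Fkbp5 (-0.54 ± 0.57) and Sgk1 (-0.26 ± 0.21) had lower fitted values in males with overlapping mice, and Tsc22d3 (0.17 ± 0.34) and Klf9 (0.11 ± 0.14) higher ones, each with an adjusted p of 0.999 by edgeR. The sign of Fkbp5, Tsc22d3, Mt2 and Sgk1 turned when 1 female library was left out. Of the adipocyte markers, 7 of 10 were lower in both males, while Ucp1 was at 0 in every library. Their sums were 342 and 356 CPM in males against 456 and 419 CPM in females. Most of each sum was Fabp4, at 318 and 329 CPM in males against 421 and 387 CPM in females. Plin1, Cidec and Pck1 were at 0.285 to 1.86 CPM, and Adipoq overlapped between males and females. A difference in adipocyte content cannot be read from these sums. Erythroid markers had the opposite direction, with 5 of 7 higher in both males, sums of 236 and 719 CPM in males against 142 and 183 CPM in females, and Hba-a2 at 0 in every library. The part of either list in these values was not tested.

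**Figure D3:**
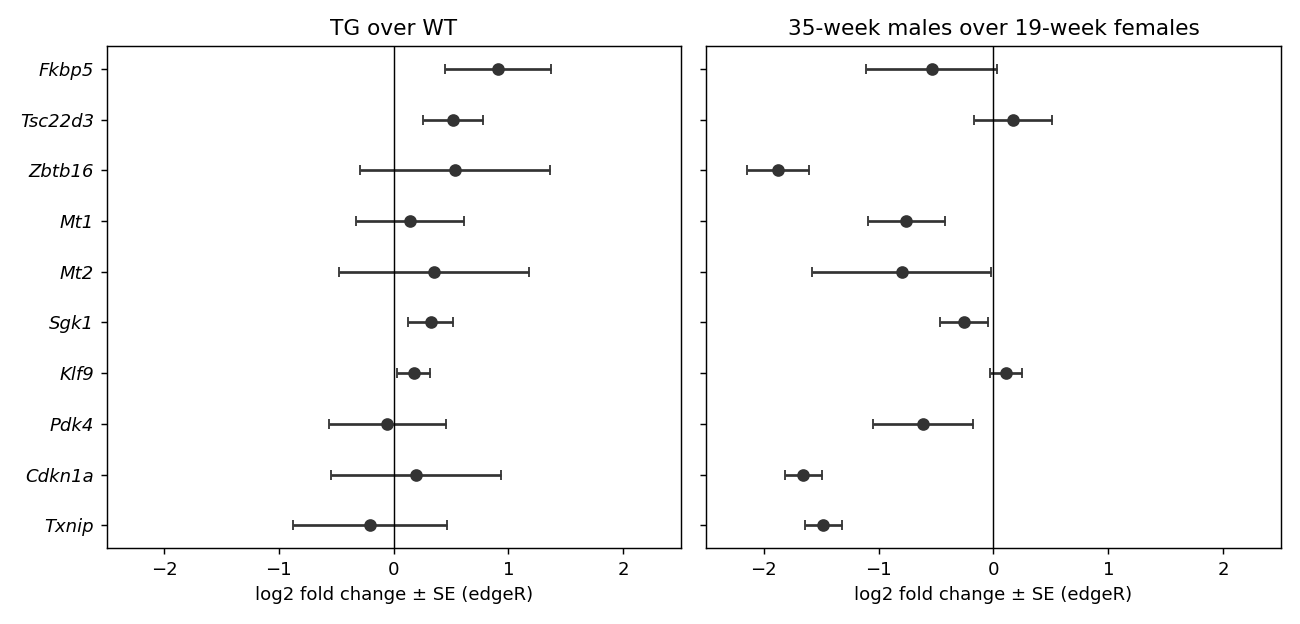
Fitted log2 fold change of each gene (rows) for TG over WT (left) and for 35-week males over 19-week females (right), as points with bars of ± 1 SE from edgeR, n = 2 mice per group. The SEs on the left are widest for Mt2, Zbtb16, Cdkn1a and Txnip, of which Mt2 overlaps between males and females. Zbtb16, Cdkn1a and Txnip lie at -1.88, -1.66 and -1.48 on the right.

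Profiles were compared across the 4 mice. Among 12826 protein-coding genes, by the Euclidean distance between log2 CPM profiles centred on their means, Cdkn1a was the nearest to Zbtb16 (distance 0.47), followed by the tubulin gene Tubb4a (0.54), the muscle growth inhibitor Mstn (0.59), the mitochondrial myosin Myo19 (0.66) and the collagen Col14a1 (0.67), and Txnip ranked 10 (0.77). Zbtb16 and Cdkn1a still differed in the male pair, with log2 TG over WT ratios of 0.44 and -0.08. Fkbp5 was nearest to the retinol-oxidising enzyme gene Adh1 (0.30), then Frat2 (0.32), the prostaglandin synthase Ptgs2 (0.40), Sh3bp1 (0.40) and the complement protease C1s2 (0.41). Nearest to Tsc22d3 were Zfp691 (0.04), Ggt7 (0.09), Plekha2 (0.12), the adenosine receptor Adora2b (0.13) and the endothelial factor Erg (0.13). These are likenesses over 4 libraries, and Tubb4a, Mstn, Frat2, Ggt7 and Adora2b were at 0.18 to 2.72 CPM. Tsc22d3 ranked 115 among the profiles nearest to Fkbp5, and Zbtb16 ranked 11997.

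Other glucocorticoid targets were compared through a list of 30 genes, of which 29 were tested. None passed the edgeR test between TG and WT, 21 of 29 had log2 fold changes above 0, and the median was 0.22. The median was -0.11 in the male and 0.48 in the female pair. The smallest p-values belonged to Ddit4, an inhibitor of mTORC1, and the clock gene Per1. Ddit4 was at 20.0 and 31.3 CPM in TG against 11.4 and 16.2 CPM in WT, a log2 fold change of 0.90 ± 0.30. Per1 was at 40.8 and 16.6 CPM in TG against 14.9 and 9.28 CPM in WT, a log2 fold change of 1.24 ± 0.49. Both were higher in TG in each pair, with an adjusted p of 1.00 by edgeR, and TG 1 was the highest library for Per1, unlike for Fkbp5.

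Between males and females the same list had 0 calls by edgeR and by DESeq2, 18 of 29 below 0 and a median of -0.10. The amino acid transporter gene Slc38a2 was at 307 and 324 CPM in males against 420.3 and 423 CPM in females (-0.42 ± 0.12), and the repressor gene Nfil3 at 9.67 and 12.3 CPM in males against 17.2 and 16.2 CPM in females (-0.60 ± 0.18), both with an adjusted p of 0.999 by edgeR.

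Of 15 tested genes of the receptor pathway, 10 had values above 0 between TG and WT (median 0.07), and none was called. The receptor gene Nr3c1, named after its values were seen, was at 239.6 and 183 CPM in TG against 229 and 213 CPM in WT. The coactivator gene Ncoa1 had the smallest p-value, with a log2 fold change of 0.38 ± 0.21 and an adjusted p of 1.00 by edgeR. In males against females 11 of 15 were above 0 (median 0.13), with 0 called by edgeR and 1 by DESeq2. This was Hsd11b1, the enzyme that regenerates active glucocorticoid inside cells, at 26.8 and 38.6 CPM in males against 14.5 and 7.87 CPM in females. Its log2 fold change was 1.55 ± 0.36, with an adjusted p of 0.999 by edgeR and 0.0308 by DESeq2. The mineralocorticoid receptor gene Nr3c2 was at 54.1 and 41.3 CPM in males against 25.0 and 32.9 CPM in females (0.72 ± 0.21, adjusted p = 0.999 by edgeR).

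Of the fasting, PPAR and FOXO targets, 21 of 34 tested genes were above 0 between TG and WT, the median was 0.05, and none was called. The acyl-CoA thioesterase gene Acot2 was at 45.9 and 50.4 CPM in TG against 36.8 and 26.9 CPM in WT (0.60 ± 0.20), and lipoprotein lipase, Lpl, at 6734 and 4788 CPM in TG against 4465 and 3794 CPM in WT (0.48 ± 0.22), both with an adjusted p of 1.00 by edgeR. In males against females 15 were above 0 and 19 below (median -0.02), with 0 called by edgeR and 2 by DESeq2, in opposite directions. Ppargc1a, the coactivator that drives mitochondrial genes, was lower in males at 167 and 128 CPM against 276 and 298 CPM in females (-0.96 ± 0.18, adjusted p = 0.999 by edgeR and 0.00206 by DESeq2). Trim63, which encodes the atrophy-linked ubiquitin ligase MuRF1, was higher in males at 217 and 259 CPM against 150.3 and 141 CPM in females (0.71 ± 0.15, adjusted p = 0.999 by edgeR and 0.0287 by DESeq2). Pdk4 had no separation of the sexes, while Txnip and Cdkn1a had the direction of Ppargc1a.

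Cdkn1a is best known as a p53 target. The list of p53 targets held 18 other tested genes, among them Trp53, the gene of p53 itself. Of these 18, 7 were above 0 in males against females and 11 below, with a median of -0.07, 0 called by edgeR and 0 by DESeq2. The cell surface receptor gene Eda2r (0.49 ± 0.24) and Phlda3 (-0.40 ± 0.24), which encodes an inhibitor of Akt, had the smallest p-values. Between TG and WT 11 of 18 were above 0 (median 0.08, 0 called), with Sesn2 at 0.50 ± 0.26 and Plk2 at -0.22 ± 0.13.

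Of the relatives and partners of Txnip, 13 of 14 were below 0 in males against females, the median was -0.11, and none was called. The smallest p-values were those of the mitochondrial thioredoxin Txn2 (-0.48 ± 0.29) and the arrestin Arrdc1 (-0.54 ± 0.36). Arrdc4, the relative of Txnip that shares its MondoA control, was at 20.1 and 27.4 CPM in males against 25.2 and 26.9 CPM in females. Between TG and WT 5 of 14 were above 0 (median -0.08), with Arrdc4 at -0.26 ± 0.17 and Arrdc3 at 0.20 ± 0.14 and none called.

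Of 12 metal response genes tested besides Mt1 and Mt2, 3 were above 0 between TG and WT (median -0.08) and 3 in males against females (median -0.11), with none called in either by edgeR or DESeq2. Mt3 held 10 to 16 counts per library and Mt4 held 0 in each. The smallest p-values between TG and WT were those of Selk (-0.17 ± 0.14) and the zinc importer Slc39a8 (0.45 ± 0.50). The zinc importer Slc39a14 was at 101 and 97.8 CPM in males against 128 and 135 CPM in females (-0.41 ± 0.12), and Gclc, which starts glutathione synthesis, at -0.18 ± 0.13.

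Family relatives of Sgk1, Klf9, Tsc22d3, Pdk4, Cdkn1a and Fkbp5, with some targets of the Sgk1 kinase, had a median of 0.08 between TG and WT, with 14 of 23 above 0, and of 0.09 between males and females, with 14 of 23 above 0, and none was called in either. The factors Klf13 (0.46 ± 0.20) and Klf4 (0.61 ± 0.31) had the smallest p-values between TG and WT, and Klf11 (-0.70 ± 0.19) and Klf10 (-0.74 ± 0.24) between males and females. The adjusted p of each of these 4 was 1.00 or 0.999 by edgeR.

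**Figure D4:**
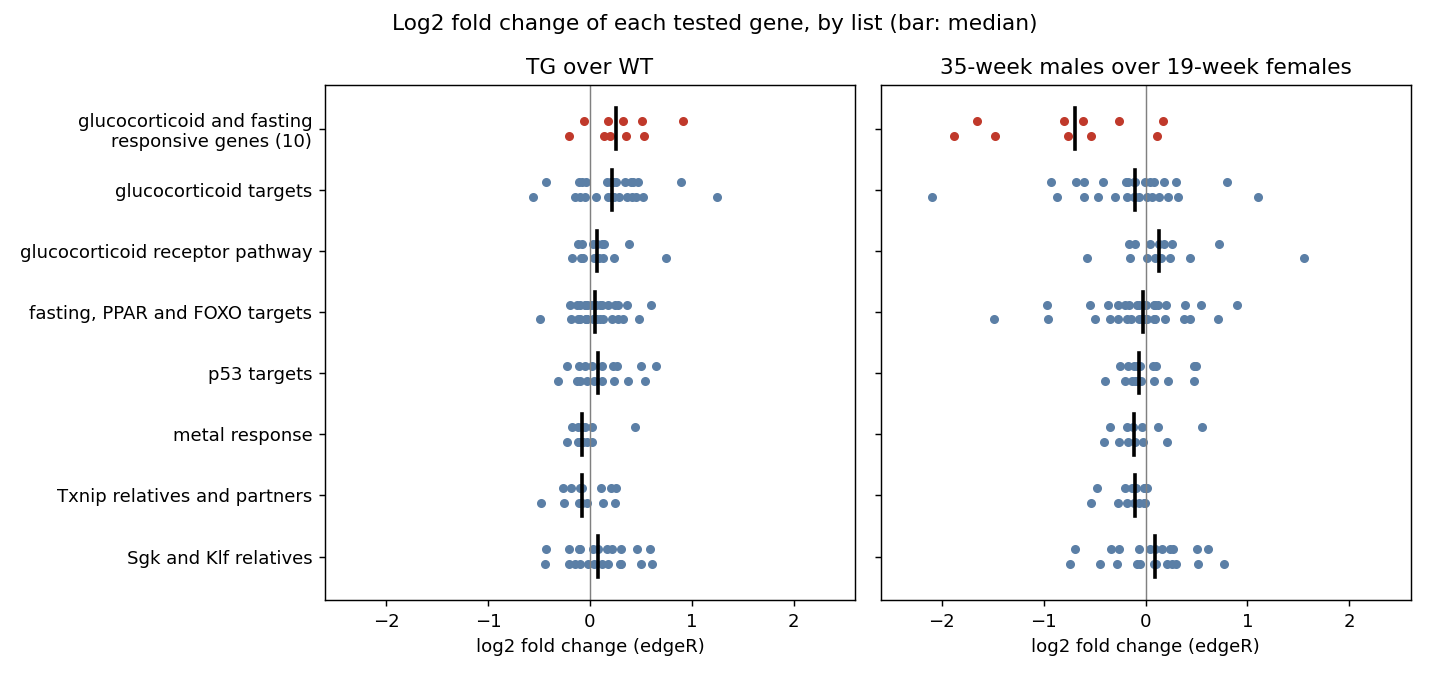
Log2 fold change of each tested gene (points) by list (rows) for TG over WT (left) and 35-week males over 19-week females (right), from edgeR, with a black bar at each list's median. The 10 genes, in red, have a median of 0.26 on the left and -0.69 on the right, and the other lists lie within -0.08 to 0.22 and -0.11 to 0.13.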

How the data were processed

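Left ventricular free wall RNA of 4 mice (2 TG, 2 WT) was sequenced as total RNA libraries on a HiSeq2000, per the labels' protocols. The authors deposited unnormalized read counts for each Ensembl gene and a normalized signal, which equalled the deposited counts divided by 1 factor per library (0.917 to 1.08). Per the submitters' processing notes, the build was mm10 and the tools were STAR 2.3.0, HTSeq 0.6.1, DESeq, CASAVA 1.8.2 and FastQC 0.10.0. Annotation release and strand setting are details not given in the sources used here.

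Counts were tested in R 4.3.3 with edgeR 4.0.16: filterByExpr with a minimum count of 10, TMM scaling, the quasi-likelihood test, Benjamini-Hochberg adjustment over 14189 genes and a threshold of 0.05. The model held genotype alone, or sex with age alone. SE is the fitted log2 fold change over the root of its F statistic. DESeq2 1.42.0, limma-voom (limma 3.58.1), other filters and scaling, a replicate block and leaving out each library were alternatives. The fit was also tested on simulated counts with the same dispersion for every gene and no effect of sex or age. That simulation cannot show how the fit behaves where sex and age differ within a genotype, as here. P-values measure spread between these 4 mice and no more. In the genotype model, mice of a genotype differ in sex and age, which enters the spread behind its p-values and SEs. In the model of sex with age, genotype enters likewise. Positions, lengths and overlaps came from GENCODE vM21 (same assembly), promoter windows from RefSeq. The members and lists were chosen with earlier results of these data known. Genes named besides the 10 were the 2 of smallest p in each of 7 lists and the 5 nearest profiles of Fkbp5, Tsc22d3 and Zbtb16; 1 gene under this rule is not reported here. Other genes (Angptl4, Ucp3, Nr3c1, Mt3, Mt4 and single cell type or library markers) were named after their values were seen.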

Additional observations from a re-analysis of the deposited data

Results flagged for a closer look

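For 6 of the 10 genes the TG over WT ratio had opposite signs in the 35-week male and the 19-week female pair, each pair being 1 TG and 1 WT mouse. The difference between pairs (log2 ratio in males minus that in females) was -3.40 for Mt2, from -1.79 in males and 1.61 in females. It was -1.86 for Fkbp5 (-0.12 and 1.75), -1.75 for Pdk4 (-1.13 and 0.62) and -1.36 for Mt1 (-0.71 and 0.65), in the same order. For Txnip (0.399, from 0.09 and -0.31) and Cdkn1a (-0.361, from -0.08 and 0.28) the ratios were small in both pairs. None of these differences was tested, and 64.7% of all tested genes had opposite signs in the pairs.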

How the results depend on the processing

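Between TG and WT the number of genes called was 0, and 3 by DESeq2, and leaving out 1 library gave 0 to 8 (8 without WT 1). Of the 10 genes none was called in any of these fits. Between males and females the number was 4, and 34 by DESeq2, 7 with no filter and 0 with genotype as a term, and leaving out 1 library gave 0 to 9 (9 without TG 2, 0 without each other library). Of the 10 genes 0 were called, and 3 by DESeq2. With the replicate number (the sex and age pair) as a replicate block, 0 genes were called between TG and WT and none of the 10. Same-numbered libraries deviated from their genotype means in opposite directions (r = -0.449), and with the numbers crossed, an alternative chosen after seeing the data, 0 genes were called.

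The TG over WT sign of Mt1 turned with limma-voom (-0.0289) and the replicate block (-0.0289), and that of Mt2 likewise (-0.0779 and -0.0553). Leaving out 1 library turned the sign of 6 genes: Zbtb16 (-0.73 to 1.71), Mt1 (-0.75 to 0.69), Mt2 (-1.45 to 1.13), Pdk4 (-1.04 to 0.53), Cdkn1a (-0.995 to 1.11) and Txnip (-0.98 to 0.86). Between males and females it turned the sign of Fkbp5 (-1.17 to 0.59), Tsc22d3 (-0.24 to 0.74), Mt2 (-1.98 to 0.23) and Sgk1 (-0.504 to 0.0321). Each fit without 1 library leaves sex and age unequal between TG and WT, or genotype unequal between males and females. Zbtb16, for one, was higher in TG within both pairs (log2 ratio 0.44 in males and 0.56 in females). The cause of the turned signs was not tested. The 60 within-pair ratios under other settings moved by less than the SD between pairs. The 32 list medians under other scaling or filtering moved by less than the SD between pairs (TG over WT) or between genotypes (males over females), though the TG over WT median of the p53 targets was 0.08 and, with a mean count of at least 50, 0.01.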
